A study of Mus musculus with 20 samples.

Results

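The neurotrophins are secreted growth factors, and the genes described here are 8 members of this signalling family: the ligands Bdnf, Ntf3 and Ntf5, the tyrosine kinase receptors Ntrk2 and Ntrk3, the shared receptor Ngfr (p75), and the VPS10-domain co-receptors Sort1 and Sorcs2. They were taken by symbol, as a set proposed with earlier results of these data known, from the 37620 genes listed in the expression table. All 8 had an Ensembl identifier there, and 7 reached the minimum level for testing, a group mean, taken on the log2 scale, of 1 RPKM (reads per kilobase of gene length, scaled to the library's size). Ntf5 did not.

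RNA was sequenced from whole dorsal root ganglia (DRG), which hold the cell bodies of sensory neurons together with their glia, of C57Bl/6 mouse embryos at E18.5, shortly before birth. Each of 5 male and 5 female embryos gave 1 library from lumbar ganglia (L4-5) and 1 from the ganglia called sacral here (L6-S1), so that there were 20 libraries and 5 in each combination of sex and level. The embryos carried no stated transgene and received no stated treatment, and the labels do not give their litters. The study asked which transcripts differ between sacral ganglia, where neurons that project to the pelvic viscera lie, and lumbar ganglia, and whether these differences depend on sex.

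Each neurotrophin matures from a pro-form that proteases cut. Of the mature ligands, brain-derived neurotrophic factor (Bdnf) and neurotrophin-4 (Ntf5) act through TrkB (Ntrk2), and neurotrophin-3 (Ntf3) acts mainly through TrkC (Ntrk3). The p75 receptor binds all of these and, with sortilin (Sort1) or SorCS2, binds their pro-forms. In sensory ganglia TrkB marks subsets of mechanoreceptors and TrkC marks proprioceptors, which need neurotrophin-3 to survive.

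Between 19403105 and 39258403 reads per library could be recovered from the deposited values. The 2 mitochondrial ribosomal RNA genes took 18.1 to 61.4% of them, with the highest share in the lumbar library of donor M5. In donors M5 and F7 both libraries had at least 45.2%. Donor F8 had 43.7% in its lumbar and 37.7% in its sacral library. No level difference in this share was detected: the mean within-donor difference, sacral minus lumbar, was 0.65 percentage points (SD 9.45, n = 10 donors, exact two-sided sign-flip permutation test, p = 0.82). The share was lower in sacral DRG in 7 donors and higher in 3. All 12 genes of a pan-neuronal list, Prph and Isl1 among them, passed the filter. The sympathetic neuron genes Dbh, Phox2a and Hand2 and the spinal cord genes Olig1, Olig2, Mnx1 and Chat did not. On the sympathetic and spinal cord lists Th and Slc5a7 did pass. Th, the rate-limiting enzyme of catecholamine synthesis, had means of 4.69 RPKM in lumbar and 6.0 RPKM in sacral libraries. Slc5a7, the choline transporter of cholinergic neurons, was called higher in sacral DRG (1.05 on the log2 scale, adjusted p = 0.00213, higher in 10 of 10 donors). Summed RPKM of 12 pan-neuronal genes ran from 937 to 2020 in lumbar and from 500 to 1760 in sacral libraries. This sum was lower in sacral DRG in 9 of 10 donors. Of the 12 genes, 11 had differences below 0 and 1 (Snap25) was called lower in sacral DRG. Their median log2 difference was -0.28, against -0.05 for all genes. The 12 glial genes summed to 422 to 593 in lumbar and 273 to 465 in sacral libraries, lower in sacral DRG in 10 of 10 donors, with 5 of 12 called lower. The 10 fibroblast and meningeal genes summed to 238 to 526 and 325 to 689, with 6 of 10 called higher in sacral DRG, as were 1 of 3 tested cartilage genes and 2 of 4 tested endothelial genes. In bulk RNA of this kind, fewer cells of a type and less RNA per cell cannot be told apart.

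Bdnf and Ntf3 were the members that differed between spinal levels, so the sequence before a start site of each is shown. RefSeq (build GRCm38.p6) gives 7 start sites for Bdnf and 2 for Ntf3 in the table used, and 250 bases before each were searched on both strands for 3 short motifs: TGACG, the half-site bound by CREB-family factors, CACGTG, an E-box, and TGTGGT, a core bound by Runx factors. The motifs were chosen with the level differences known. Of the 7 Bdnf windows 1 held a match, and of the 2 Ntf3 windows 1 held a match. Both are printed 5′ to 3′ with the match in capitals.
Bdnf, chr2:109692186-109692435, plus strand, with TGACG on the opposite strand 35 bases before the start site: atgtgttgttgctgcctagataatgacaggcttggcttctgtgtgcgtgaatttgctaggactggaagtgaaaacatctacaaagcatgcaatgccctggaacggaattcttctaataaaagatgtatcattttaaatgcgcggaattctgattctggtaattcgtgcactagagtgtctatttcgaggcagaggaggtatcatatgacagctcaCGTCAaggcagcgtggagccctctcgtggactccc
Ntf3, chr6:126166745-126166994, minus strand, with CACGTG 231 bases before the start site: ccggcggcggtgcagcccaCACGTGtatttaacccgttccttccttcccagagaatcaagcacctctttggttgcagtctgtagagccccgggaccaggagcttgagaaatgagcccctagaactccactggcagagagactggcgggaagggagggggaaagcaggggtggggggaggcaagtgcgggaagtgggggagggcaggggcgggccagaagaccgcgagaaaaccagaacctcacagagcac
Of all 32851 RefSeq windows of the same length, 17.8% held TGACG, 6.02% held CACGTG and 14.0% held TGTGGT. The share of windows with any of the 3 motifs was not computed, so the window counts above have no matching background. A match describes the letters in the window only, and the gene-level values cannot say which start site was used.

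Per unit of gene length, the members spanned a wide range of levels in these ganglia. Ngfr was the most abundant, with a median of 212 RPKM over 20 libraries (52.3 to 314). Ntrk3 followed at a median of 11.6 RPKM (8.52 to 16.4), Sort1 at 9.25 (4.90 to 13.7) and Ntrk2 at 9.19 (5.62 to 18.1), and the ranges of these 3 neighbours overlapped. Sorcs2 had a median of 2.69 RPKM (2.17 to 4.19) and Bdnf of 2.51 (0.572 to 6.78). Ntf3 had a median of 2.02 RPKM and a highest value of 5.89, and was at 0 reads in 1 library.

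**Figure D1:**
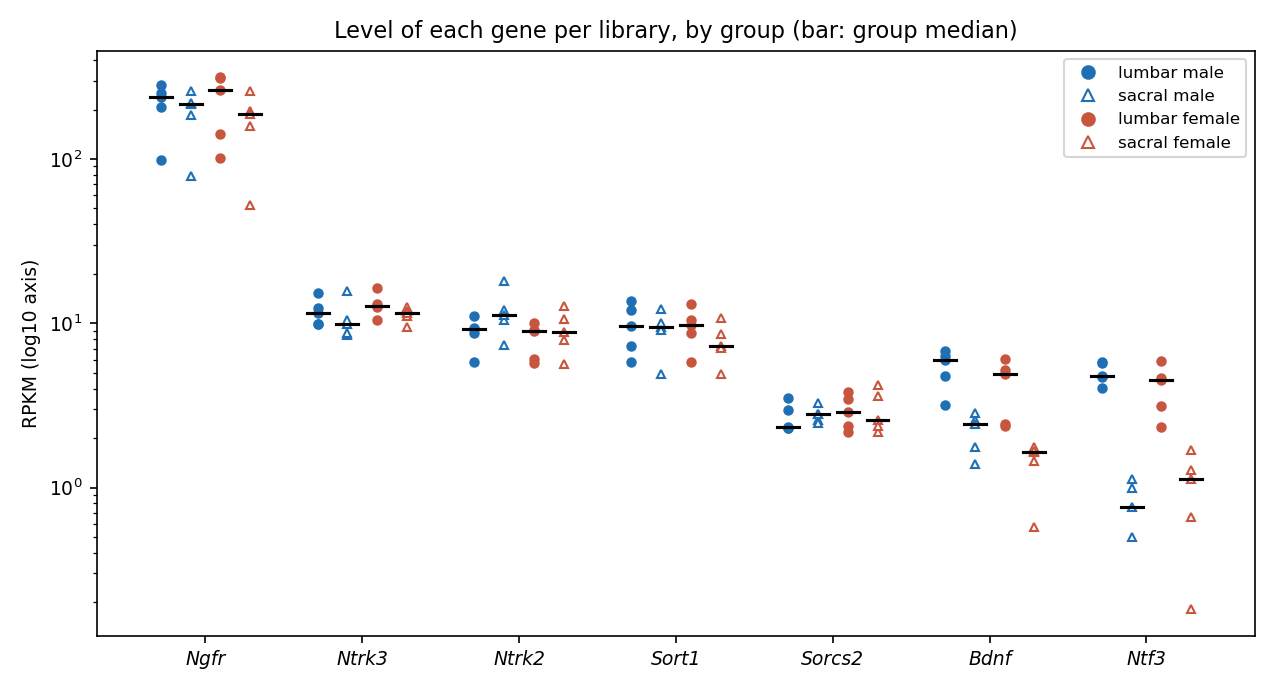
RPKM (log10 axis) of each gene in each library, for males and females at each level, with a bar at the median of each group of 5. Ngfr lies above every other gene, Bdnf and Ntf3 are lower in the sacral groups, and the sacral library of donor M7, at 0 Ntf3 reads, is not drawn for Ntf3.

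Differential expression analysis between sacral and lumbar DRG (limma with donor as a block, Benjamini-Hochberg adjustment over all 14529 genes tested) called 2 of the 7 tested members, both lower in sacral DRG and both ligands. Over all genes 6.73% were called, 4.03% as lower and 2.70% as higher, and the median log2 difference of all genes was -0.05. Of the 5 tested receptors and co-receptors 0 passed the threshold in limma or limma-voom, and 1, Ntrk2, had an unadjusted p under 0.05. That was common in this comparison: Ntrk2 ranked 3253 by p, so at least 3253 of the 14529 genes had an unadjusted p under 0.05. Both ligand calls were kept under each of the 24 alternative analyses.

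Bdnf, on chromosome 2 (109514857 to 109567204 of mm9, plus strand), encodes the main TrkB ligand and is made by a subset of nociceptors. In lumbar male libraries it stood at 4.79, 6.33, 3.17, 5.97 and 6.78 RPKM in donors M1, M3, M5, M7 and M8, and in the sacral libraries of the same donors at 2.56, 2.43, 1.4, 2.83 and 1.77 RPKM. In lumbar female libraries it stood at 5.18, 2.38, 2.45, 4.88 and 6.10 RPKM in donors F3, F7, F8, F9 and F10, and in their sacral libraries at 1.76, 0.572, 1.64, 1.67 and 1.45 RPKM. Every donor was lower in its sacral ganglia, which was the case for 1.95% of all genes tested. Over both sexes the levels overlapped, because the lumbar libraries of F7 and F8 lay below the highest sacral male values.

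Bdnf was 2.69-fold lower in sacral DRG (log2 difference -1.43 ± 0.18 SE, 95% interval -1.81 to -1.05, adjusted p = 8.48e-05). By this p it ranked 21 among the 14529 genes. Within donors the difference ran from -2.07 in F10 to -0.58 in F8. These values rest on 323 to 1432 reads per lumbar library and 82 to 497 per sacral library, so counting error is small beside the spread between donors. The sacral library of F7 had the lowest value, and without the 4 libraries of donors M5 and F7 Bdnf was still called.

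Ntf3, on chromosome 6 (126051431 to 126116762 of mm9, minus strand), encodes neurotrophin-3, which supports proprioceptors and is made by muscle as well as within developing ganglia. In lumbar male libraries it stood at 5.78, 4.68, 4.79, 5.73 and 4.04 RPKM in donors M1, M3, M5, M7 and M8, and in their sacral libraries at 0.764, 1.0, 1.13, 0 and 0.497 RPKM. In lumbar female libraries it stood at 5.89, 2.34, 3.14, 4.50 and 4.66 RPKM in donors F3, F7, F8, F9 and F10, and in their sacral libraries at 1.12, 0.182, 1.70, 0.661 and 1.27 RPKM. All 10 sacral values lay below all 10 lumbar values, a separation in that direction found for 0.0757% of all genes tested.

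Ntf3 was lower in sacral DRG by 3.07 ± 0.53 (SE) on the log2 scale (a difference of -3.07, 95% interval -4.16 to -1.97, adjusted p = 0.00198). The size depends on the sacral library of donor M7, where no read was counted and the value was set to that of 0.5 reads. Against the limit of 3 reads that a count of 0 allows, Ntf3 in this donor was at least 74.9-fold lower in sacral than in lumbar ganglia. Without donor M7 the log2 difference was -2.44 ± 0.26, with an adjusted p of 2.71e-05. On the log2(RPKM + 1) scale, which shrinks differences of low values, it was -1.62. The lumbar libraries held 81 to 278 Ntf3 reads and the sacral libraries 0 to 64, fewer than for Bdnf.

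Skeletal muscle genes varied widely between dissections, with summed RPKM of 24.3 to 459 in lumbar and 23.0 to 245 in sacral libraries. Their sum was lower in sacral DRG in 8 of 10 donors. All 9 tested muscle genes had differences below 0, with a median of -0.57. Of these, 0 were called by limma or limma-voom, and 1 had an unadjusted p under 0.05 in limma. Of 7 tested genes of large myelinated neurons, 4 (Pvalb, Etv1, Nefh and Nefm) were called lower in sacral DRG and 0 higher, while Spp1 and Heg1 had differences of 0.70 and 0.31 that did not pass. The summed RPKM of the list was 281 to 740 in lumbar and 151 to 348 in sacral libraries, lower in 10 of 10 donors. Of the genes called, Pvalb, the calcium-binding protein of proprioceptors, differed by -1.33 ± 0.15 on the log2 scale (adjusted p = 1.26e-05). Of 11 nociceptor genes, Tac1 was called lower and Trpv1 higher in sacral DRG, the other 9 had differences below 0 that did not pass, and the list summed to 293 to 529 RPKM in lumbar and 171 to 478 RPKM in sacral libraries, lower in 9 of 10 donors. The part of these cell types in the Bdnf and Ntf3 differences was not tested. When each library was centred on its pan-neuronal or glial genes, Bdnf and Ntf3 stayed called lower. Centring shifts all genes of a library alike, so it cannot address a change in the share of a neuron subtype. Relative to the median of all genes, the differences were -1.38 for Bdnf and -3.02 for Ntf3 with or without centring.

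**Figure D2:**
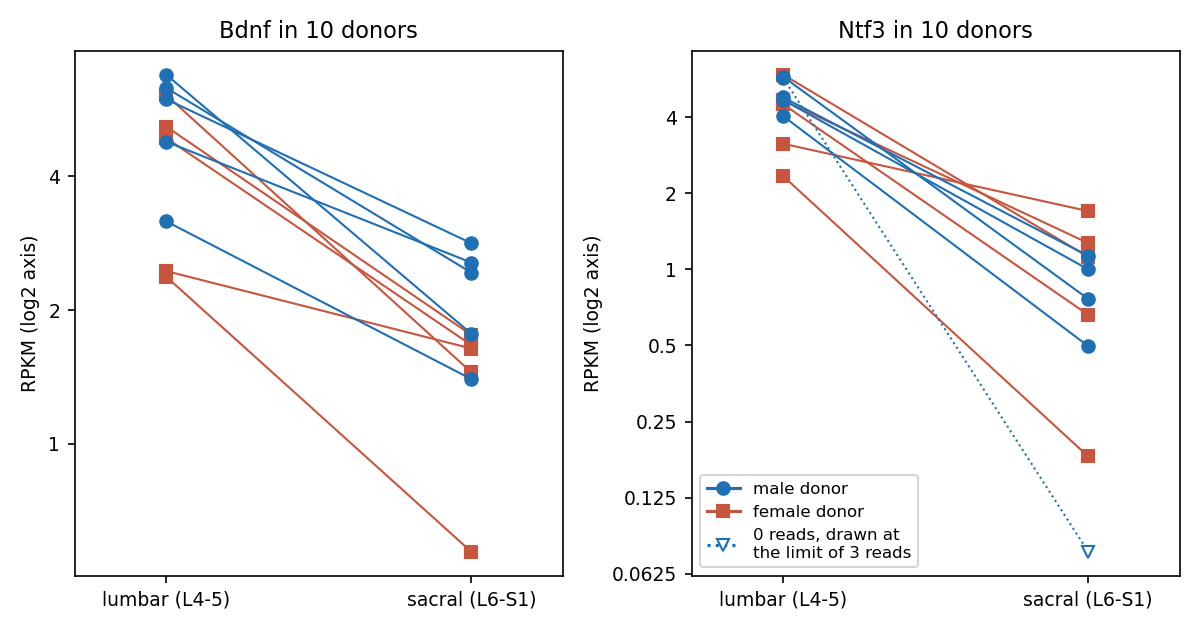
RPKM (log2 axis) of Bdnf and Ntf3 in the lumbar and sacral ganglia of each of 10 donors, with a line joining the 2 libraries of a donor. Each line falls from lumbar to sacral, and the open triangle marks the sacral library of M7, with 0 Ntf3 reads, drawn at the limit of 3 reads.

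Ntf5, on chromosome 7 (52669065 to 52672548 of mm9, plus strand), encodes neurotrophin-4 and was barely detected. It had 0 reads in 17 of 20 libraries, 18 reads in the sacral library of M1, 5 in the lumbar library of F8 and 2 in the lumbar library of M3. A count of 0 allows up to 3 reads, and 2 libraries exceeded that. The within-donor log2 difference, with blanks set to 0.5 reads, averaged 0.08 (SD 2.04, n = 10, exact two-sided sign-flip permutation test, p = 0.822, smallest possible p 0.00195). No level difference in Ntf5 was detectable at this depth.

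Ntrk2, on chromosome 13 (58907957 to 59235331 of mm9, plus strand), encodes TrkB in full-length and truncated forms that the gene-level values cannot separate. It stood at 8.72, 9.35, 5.84, 9.23 and 11 RPKM in the lumbar libraries of M1, M3, M5, M7 and M8, and at 10.4, 12, 7.34, 18.1 and 11.2 RPKM in their sacral libraries. In F3, F7, F8, F9 and F10 it stood at 10.1, 5.71, 6.09, 9.03 and 9.16 RPKM in lumbar and at 12.7, 5.62, 7.86, 10.6 and 8.88 RPKM in sacral libraries. The groups overlapped, and 8 of 10 donors were higher in sacral DRG.

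The log2 difference of Ntrk2 was 0.28 ± 0.13 (SE, 95% interval 0.01 to 0.55), with an unadjusted p of 0.0434 in limma and an adjusted p of 0.194. The call depended on scaling. Centred on pan-neuronal genes, the difference was 0.52 ± 0.09 (adjusted p = 0.00167), and centred on glial genes it was 0.69 ± 0.10 (adjusted p = 0.000135). These centrings also moved the median of all genes, from -0.05 to 0.19 and 0.36, and relative to that median the difference of Ntrk2 was 0.33 under each of these 3 scalings, since centring shifts all genes of a library alike. Of 6 tested low-threshold mechanoreceptor genes, a class in which TrkB neurons fall, 2 (Maf and Calb1) were called higher in sacral DRG and 0 lower, while the other 4 (Shox2, Necab2, Ret and Gfra2) had differences below 0 and the median of the 6 was -0.23. The summed RPKM of the list was 45.8 to 116 in lumbar and 32.8 to 115 in sacral libraries, lower in sacral DRG in 7 of 10 donors.

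Ntrk3, on chromosome 7 (85337248 to 85723294 of mm9, minus strand), encodes TrkC, also with truncated forms. Its RPKM was 9.90 to 16.4 (median 12.4) in lumbar and 8.52 to 15.8 (median 10.8) in sacral libraries, and 8 of 10 donors were lower in sacral DRG. The log2 difference was -0.18 ± 0.10 (95% interval -0.39 to 0.03, adjusted p = 0.284). The exceptions were M7, whose sacral library held 15.8 RPKM against 9.90 in its lumbar library, and F8, at 11.8 against 10.4. Without donor M7 the difference reached -0.29 ± 0.08 (adjusted p = 0.0496), while centring on pan-neuronal or glial genes turned it to 0.06 and 0.23.

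The ratio of Ntrk2 to Ntrk3 was higher in sacral DRG in 10 of 10 donors, by 0.0856 to 0.705 on the log2 scale. The log2 ratio was -0.578 ± 0.287 (SD, n = 10) in lumbar and -0.116 ± 0.364 in sacral libraries, and the ranges of the levels overlapped. This ratio was computed after the values had been seen and carries no test. It does not depend on the scaling of a library.

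**Figure D3:**
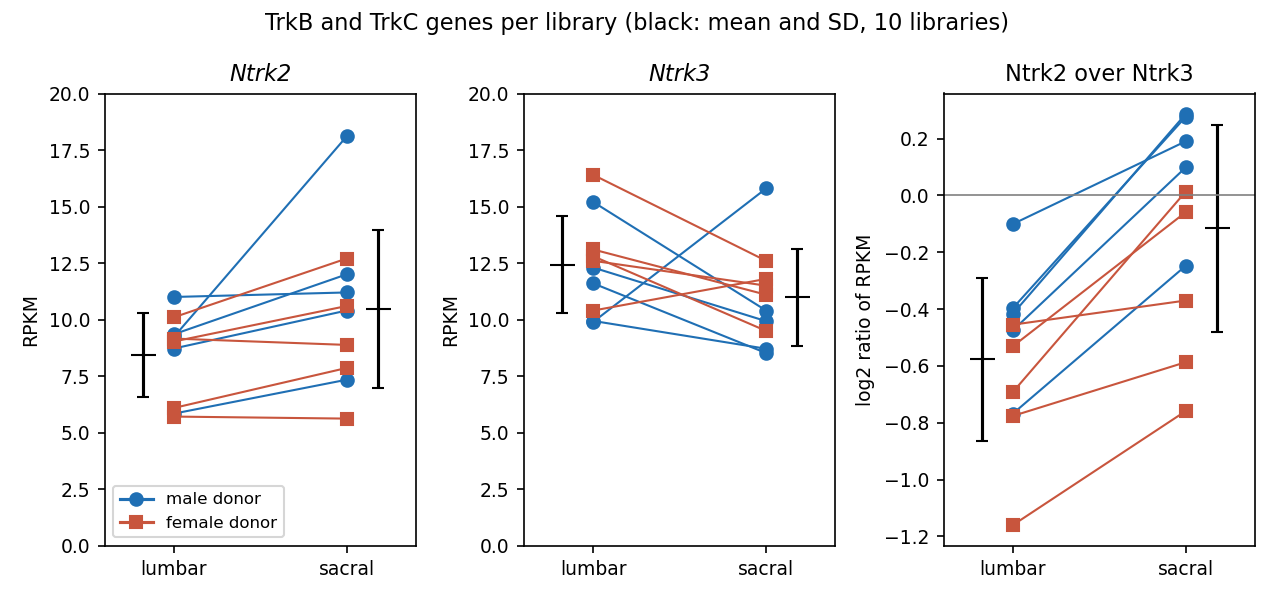
Left and centre, RPKM (axis from 0) of Ntrk2 and Ntrk3 in the lumbar and sacral libraries of 10 donors, and right, the log2 ratio of Ntrk2 to Ntrk3 RPKM, with lines joining the 2 libraries of a donor and the mean and SD of each level in black. The ratio is higher in the sacral library of each donor, with a range of -1.16 to -0.101 in lumbar and -0.759 to 0.286 in sacral libraries.

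Ngfr, on chromosome 11 (95430132 to 95449049 of mm9, minus strand), encodes p75, a death-domain receptor found on sensory neurons and on immature Schwann cells. It had 98.9 to 314 RPKM (median 244) in lumbar and 52.3 to 261 RPKM (median 193) in sacral libraries, with 7 of 10 donors lower in sacral DRG. The log2 difference was -0.31 ± 0.22 (95% interval -0.78 to 0.15, adjusted p = 0.394), and the within-donor differences had an SD of 0.45. With donor as a fixed term in limma it was -0.31 ± 0.13 (adjusted p = 0.159), and centred on glial genes it was 0.09. The log2 ratio of Ngfr to the sum of Ntrk2 and Ntrk3, computed after the values had been seen and not tested, was 3.31 ± 0.447 (SD, n = 10) in lumbar and 2.97 ± 0.536 in sacral libraries, and 8 of 10 donors were lower.

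Ngfr was low in both libraries of M5 (98.9 and 78.9 RPKM) and of F7 (101 and 52.3 RPKM), donors with a high mitochondrial rRNA share. Across the 20 libraries, which share donors, the correlation of log2 Ngfr with that share was -0.835. It was -0.842 for Sort1, -0.731 for Ntrk2, -0.478 for Bdnf, -0.439 for Ntrk3, -0.052 for Sorcs2 and -0.051 for Ntf3. For the within-donor differences (n = 10), the correlation was -0.593 for Sort1, -0.505 for Ngfr, -0.504 for Bdnf and -0.335 for Ntrk2. It was -0.231 for Sorcs2, -0.208 for Ntrk3 and 0.002 for Ntf3. With the share as a covariate, Bdnf and Ntf3 remained the members called. The part of RNA or library quality in these levels was not tested.

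Sort1, on chromosome 3 (108087009 to 108164429 of mm9, plus strand), encodes sortilin, which sorts proneurotrophins inside cells and pairs with p75 at the surface. It had 5.77 to 13.7 RPKM in lumbar and 4.90 to 12.2 RPKM in sacral libraries, lower in sacral DRG in 8 of 10 donors. Its log2 difference was -0.19 ± 0.15 (95% interval -0.50 to 0.11, adjusted p = 0.426), and it turned to 0.05 and 0.21 under centring on pan-neuronal and glial genes. It shares exon bases with Gm12523 on the opposite strand, and strand use in counting is not stated, so reads of this partner may be included.

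Sorcs2, on chromosome 5 (36359829 to 36740788 of mm9, minus strand), encodes a related co-receptor for pro-forms. It had 2.17 to 3.80 RPKM in lumbar and 2.19 to 4.19 RPKM in sacral libraries, with 6 of 10 donors higher. The log2 difference was 0.04 ± 0.12 (95% interval -0.20 to 0.28, adjusted p = 0.856). It was called only when centred on glial genes (0.45, adjusted p = 0.0152), a scaling under which the median of all genes was 0.36, and its sign was negative without M7 or without F7.

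The level comparison was also made within each sex. In males 2 of 7 tested members were called, both lower, against 0.461% of all genes called and 0.289% called lower: Bdnf differed by -1.29 ± 0.26 (adjusted p = 0.0197) and Ntf3 by -3.81 ± 0.74 (adjusted p = 0.0186). Ntf3 in males was -2.56 ± 0.39 (adjusted p = 0.00492) without donor M7, and Bdnf then just missed the threshold (adjusted p = 0.0502). In females Bdnf was the 1 member called, against 0.881% of all genes called and 0.695% called lower, with -1.56 ± 0.26 (adjusted p = 0.00415). Ntf3 in females differed by -2.32 ± 0.74 (adjusted p = 0.132), although all 5 female donors were lower. Without the male donor M7, whose 0 reads enter the shared estimate of spread, the same female difference of -2.32 had an SE of 0.35 and an adjusted p of 0.00305. The calls in males were less firm than the pooled ones: that of Bdnf was lost with any male donor left out, that of Ntf3 without M1 or M5, without M5 and F7 together (adjusted p = 0.0593) and with donor as a fixed term (adjusted p = 0.0745), and both without the donor block or the filter. The call of Bdnf in females was lost without the donor block.

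**Figure D4:**
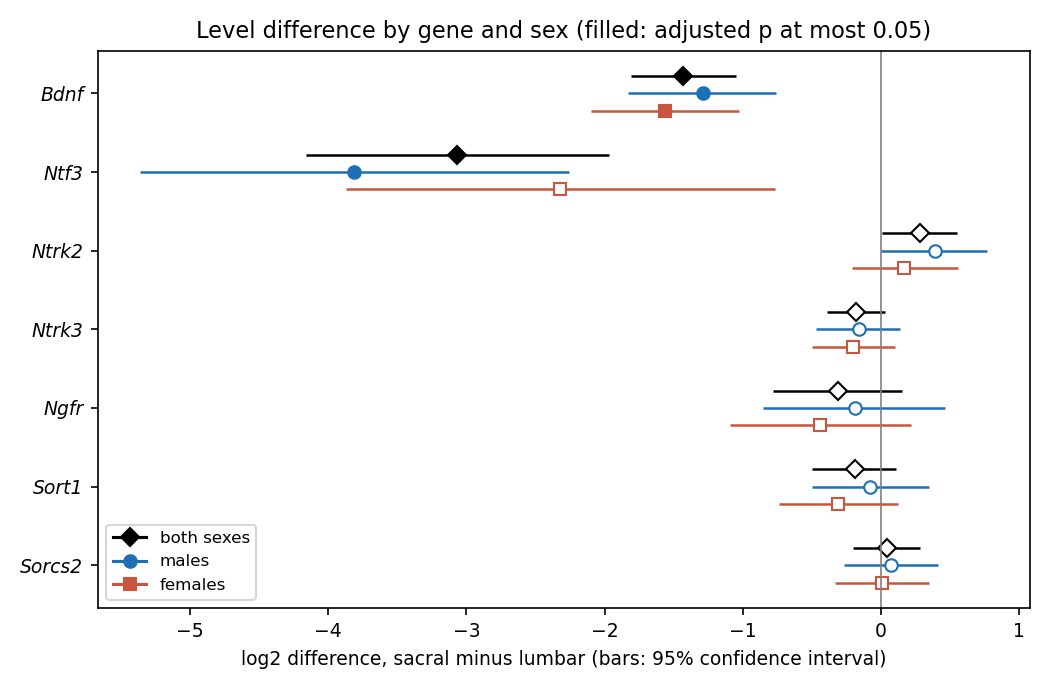
Log2 difference, sacral minus lumbar, of each tested member for both sexes pooled, males and females, with 95% confidence intervals and filled symbols where the adjusted p was at most 0.05. Intervals of Bdnf and Ntf3 lie below 0 in each row, and the pooled Ntrk2 interval of 0.01 to 0.55 just excludes 0 without passing the adjusted threshold.

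No member was called as different between the sexes. In limma 0 of 7 members were called between female and male lumbar DRG, where 0.330% of all genes were called, and 0 of 7 had an unadjusted p under 0.05, which 8.28% of all genes had. Between female and male sacral DRG 0 of 7 members were called, against 1.01% of all genes, and 1 had an unadjusted p under 0.05, which 15.5% of all genes had. This was Bdnf, at -0.69 ± 0.31 (female minus male, 95% interval -1.35 to -0.04, adjusted p = 0.299), with 0.572 to 1.76 RPKM in sacral female and 1.4 to 2.83 RPKM in sacral male libraries. In lumbar DRG the female minus male difference of Bdnf was -0.42 ± 0.31 (adjusted p = 0.783). The interaction of level and sex was called for 0 of 7 members and for 0 of 14529 genes (0.00%), with 0 members and 470 genes (3.23%) at an unadjusted p under 0.05. Limma-voom on the recovered reads also called 0 members in these 3 comparisons. The interaction was -0.27 ± 0.36 for Bdnf (95% interval -1.02 to 0.48) and 1.49 ± 1.05 for Ntf3 (-0.70 to 3.69), so a sex difference in the size of the Ntf3 effect was not resolved at this spread.

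Beyond the members, 72 other genes of the pathway were examined in 6 lists, and 58 were tested. Of these, 2 were called higher and 4 lower in sacral DRG, which is 10.3% against 6.73% of all genes, and their median log2 difference was -0.04 against -0.05. Among the 7 tested proteases that cut proneurotrophins or regulate their cutting, the proprotein convertase Pcsk5 rose in sacral DRG by 0.40 ± 0.08 (adjusted p = 0.0084, higher in 10 of 10 donors). The matrix protease Mmp9 was at 0.82 ± 0.44 (adjusted p = 0.251) and the convertase Pcsk2 at -0.33 ± 0.21 (adjusted p = 0.337). The sorting receptors Sorl1 and Sorcs1 were at 0.14 ± 0.17 and -0.13 ± 0.13, and 0 of 3 on that list passed the threshold in limma or limma-voom, with 0 at an unadjusted p under 0.05.

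Of 14 p75 co-receptors and adaptors 0 were called by limma and 2 by limma-voom, which called 866 of 14147 genes in all. In limma 3 of the 14 had an unadjusted p under 0.05, which at least 3253 of the 14529 genes had. The largest differences were those of Ngfrap1, a p75-binding protein, at -0.37 ± 0.12 (adjusted p = 0.0597) and the receptor Tnfrsf19 at 0.62 ± 0.20 (adjusted p = 0.0658). Of 18 tested Trk adaptors, scaffolds and partners, Frs2, the docking protein that links activated Trk receptors to the Ras pathway, rose by 0.23 ± 0.06 (adjusted p = 0.025, higher in 10 of 10 donors). The adaptor Shc3 was at -0.41 ± 0.20 and Islr2 at -0.25 ± 0.24, neither past the threshold. Of 9 feedback inhibitors, the MAP kinase phosphatase Dusp4 fell by 0.48 ± 0.10 on the log2 scale (adjusted p = 0.00726, lower in 10 of 10 donors), and Dusp6 and Spry4 were at -0.37 ± 0.14 and -0.30 ± 0.15 without passing.

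Of 8 tested transcripts known to respond to neurotrophins, 3 were called lower in sacral DRG and 0 were called higher, and in all 5 differences lay below 0 and 3 above. Their summed RPKM was higher in sacral DRG in 6 of 10 donors. The transcription factor Etv1, which proprioceptive afferents need to reach the ventral horn, had a log2 difference of -0.86 ± 0.14 (adjusted p = 0.000907, lower in 9 of 10 donors), from a mean of 34.0 RPKM in lumbar to 18.9 in sacral libraries. Egr2 was at -1.10 ± 0.27 (adjusted p = 0.0185) and Nr4a1, an immediate early nuclear receptor, at -0.63 ± 0.17 (adjusted p = 0.0272). Egr2 also drives myelination and stands on the glial list, and Etv1 stands on the list of large myelinated neurons, where each is counted again. The secretory granule genes Vgf and Scg2 were at -0.76 ± 0.30 and 0.52 ± 0.20, neither past the threshold. Without donors M5 and F7 the calls on these pathway lists fell from 6 to 1, which was Etv1.

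**Figure D5:**
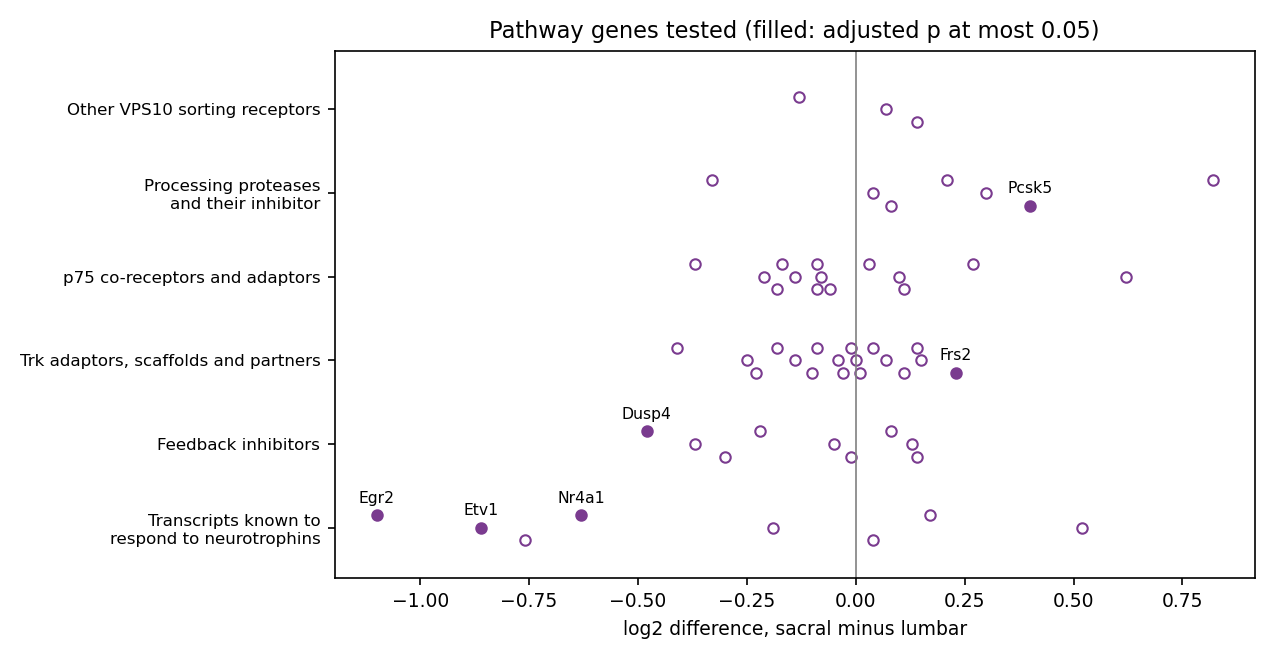
Log2 difference, sacral minus lumbar, of each of the 58 tested pathway genes, by list, with filled points where the adjusted p was at most 0.05 (a gene on 2 lists is drawn on both). The 6 named genes passed, 2 of them to the right of 0 and 4 to the left.

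For each tested member, genes among the 3 with the most similar values over the 20 libraries are given as a description. Bdnf was most like Cdh18, Cacng5 and Neto1 (Pearson r 0.971, 0.958 and 0.956), which encode a cadherin, a calcium channel or AMPA receptor auxiliary subunit and a glutamate receptor auxiliary subunit. Each was also lower in sacral DRG, at -0.89, -1.34 and -0.77. Ntf3 was most like Mrpl18, Lsm4 and Pvalb (r 0.926, 0.879 and 0.857), and without the sacral library of M7 these values were 0.832, 0.752 and 0.807. Ntrk2 was most like Negr1, Scg2 and Tbx3 (r 0.963, 0.958 and 0.953), at level differences of 0.64, 0.52 and 0.37, and Ntrk3 was most like Gm16750, Gm13748 and Tns1 (r 0.915, 0.905 and 0.866). The values of Ngfr resembled those of Gm15487 and Gfra3 (r 0.984 and 0.982), the last of which encodes the receptor for artemin. Sort1 was most like Gm17637, Adam19 and Eif4g1 (r 0.955, 0.953 and 0.950). Sorcs2 had the weakest resemblance, to Sept9, Ucp2 and Kirrel (r 0.806, 0.793 and 0.779). Libraries of a donor share RNA handling and the 20 points share level, so these values carry no p.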

How the data were processed

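Total RNA of lumbar (L4-5) and sacral (L6-S1) DRG of 10 embryos was amplified and sequenced by the authors. Per the study's methods and the submitters' processing notes, reads were aligned to mm9 with Subread (1.18 or later, with 1.20.6 also listed), unique reads were counted per Ensembl gene with featureCounts, and the authors deposited TMM-scaled log2 RPKM values (limma 3.26.9, edgeR 3.12.1). The strand setting is not given in the sources used here. Amplification without molecular identifiers means that read limits cover counting error only.

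Of 37620 genes, 29049 had a value. With GENCODE M1 exon lengths, 97.66% of values lay within 0.05 of a whole read. For Bdnf, the annotated length of 5850 bases did not give whole reads in every library, and 6217 bases, the 1 length within 50% that did, was used. Blanks were read as 0 reads and set to 0.5 reads. Gene coordinates are mm9, 1-based.

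Levels were compared with limma 3.58.1 (R 4.3.3, statmod 1.5.0) on log2 RPKM of 20 libraries: 4 group means, donor block by duplicateCorrelation (0.342), eBayes with trend, two-sided, Benjamini-Hochberg over 14529 genes with a mean, taken on the log2 scale, of at least 1 RPKM in 1 group, threshold 0.05. Donors pair the libraries because both come from 1 embryo. The fit was tested on simulated data with changed genes. Genes under the filter were tested by exact sign-flip permutation over donors (Python 3.11.15, numpy 2.4.6). The members, pathway and marker lists, and motifs were chosen with earlier results of these data known. Named were all members, of each pathway list the genes past the threshold and the 2 largest differences among the others, and the 3 most similar genes of each tested member. Other genes named (markers) come from fixed lists. Alternatives covered block, filter, blanks, pseudocount, weights, variance prior, mitochondrial covariate, centring, limma-voom and each donor left out. Leaving out donors M5 and F7 was added after seeing the data. Some genes of the pathway, marker and similarity lists are not reported here. Protein sequences were not used here.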

Additional observations from a re-analysis of the deposited data

Results flagged for a closer look

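In groups of 5 libraries, a library was examined further where its gap to the nearest other exceeded 0.71 of the group's range (Dixon's criterion at the 95% level), over 7 genes in 28 groups, of which chance marks about 1 in 20. In sacral female DRG, Bdnf in donor F7 was at -0.81 log2 RPKM, and the other 4 libraries lay between 0.54 and 0.82. In sacral male DRG, Ntf3 in donor M7 was at -6.29, the value set for 0 reads, against -1.01 to 0.18 in the others. In sacral male DRG, Ngfr in donor M5 was at 6.30, against 7.53 to 8.02. The libraries of donors M5 and F7 had the highest mitochondrial rRNA shares (45.2% or more), followed by the lumbar library of F8 (43.7%). The part of this share in these values was not tested.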

How the results depend on the processing

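Bdnf and Ntf3 kept their direction and their call for the level difference under all 24 alternatives, with log2 differences of -1.55 to -1.02 and -3.28 to -1.62. Of the 2 members called, the count became 4 when centred on glial genes and 2 to 3 with 1 donor left out. In males (2 called) it was 0 with no replicate block and with no filter on low values, 1 with donor as a fixed term and 1 without donors M5 and F7 (Ntf3 was lost in both), and 0 to 2 with 1 donor left out. In females (1 called) it was 0 with no replicate block, 2 on the log2(RPKM + 1) and log2(RPKM + 0.1) scales, with sample weights and centred on glial genes, and 1 to 2 with 1 donor left out. Pathway genes called (6) were 1 with no replicate block, 15 with sample weights, 36 centred on glial genes, 1 without donors M5 and F7, and 3 to 8 with 1 donor left out, 3 being without F10. The replicate block changed no pooled call of a member. Without it 154 genes in all were called in place of 978, with sample weights 2998, and without M5 and F7 265. Centred on glial genes, 7197 of all 14529 genes were called, and the median of all genes was 0.36.

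Signs turned for members not called: Ntrk3 to 0.06 and 0.23 and Sort1 to 0.05 and 0.21 when centred on pan-neuronal and glial genes, Ngfr to 0.09 when centred on glial genes, and Sorcs2 to -0.01 without M7, -0.03 without F7 (-0.03 to 0.11 over the donors left out) and -0.05 without M5 and F7. Ntf5 ran from -0.47 (without M1) to 0.38, and the mitochondrial rRNA share ran from -1.26 (without F9) to 2.0 percentage points, also turning to -0.84 without M8 and -0.11 without F10. Of all called genes 40.1% were higher in sacral DRG, against 73.7% and 98.9% under the 2 centrings, 50.2% in limma-voom and 27.5% without M5 and F7. The cause of these changes was not tested.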
